A study of Mus musculus with 6 samples.

Results

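Clec4a1, Clec4a2, Clec4a3, Clec4b1, Clec4d, Clec4e, Clec4n, Clec7a and Clec12a encode C-type lectin receptors of myeloid cells, and all 9 lie on mouse chromosome 6. They were taken by gene name from the deposited table of 54532 genes, and each name matched 1 row. They were picked with the difference between the study's fractions already known, so their values are given as a description, without p-values of their own. Total RNA came from F4/80+ cells of the peritoneal cavity of C57BL/6 mice that carried p16-Cre and the Rosa26-mtmg reporter and were kept for 12 months. In this reporter, cells make membrane tdTomato until Cre recombinase, here driven from p16, switches them to EGFP. Cells were selected on magnetic beads and sorted into EGFP cells, called p16High, and tdTomato cells, called p16Low, with 3 libraries of each. Both fractions share genotype, age and tissue. Nothing in the labels states whether libraries were made from separate animals or from pools, so any p-value reflects the spread among the 6 libraries and may be technical. Means are written below as p16High against p16Low, each as mean ± SD of n = 3 libraries.

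C-type lectin receptors of this group recognise sugars, glycolipids and other ligands of microbes and damaged cells. Activating receptors pass the signal through an immunoreceptor tyrosine-based activation motif (ITAM), carried either by the partner chain FcRgamma (Fcer1g) or, in a shortened form, by the receptor's own tail, to the kinase Syk and the adaptor Card9. Inhibitory receptors carry an inhibitory motif (ITIM) in their tail and recruit phosphatases such as Shp1 (Ptpn6). Clec4a2 (DCIR) and Clec12a (MICL, a receptor for uric acid crystals) were counted as the 2 inhibitory receptors. Clec4b1 (DCAR), Clec4d (MCL), Clec4e (Mincle, a receptor for mycobacterial cord factor), Clec4n (Dectin-2, which binds fungal mannans) and Clec7a (Dectin-1, which binds beta-glucans) were counted as the 5 activating ones. Clec4a1 and Clec4a3 are close relatives of DCIR and were put in neither class.

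Of the 9 genes, 7 lie within 368 kb, in the order Clec4a1, Clec4a3, Clec4b1, Clec4a2, Clec4n, Clec4d and Clec4e, and Clec12a and Clec7a lie 6.05 Mb further along. Gene positions below are on GRCm38 as the deposited table gives them. Promoters from RefSeq (GRCm38.p6), running from 250 bases before to 50 bases after the start site, were found for 8 of the 9 genes. Those of the 4 neighbouring relatives are shown because every p16High library was below every p16Low library for Clec4a2 and Clec4b1, while Clec4a1 and Clec4a3 overlapped between fractions. Capitals mark GAGGAA on either strand, a core of the binding motif of the myeloid transcription factor PU.1.
Clec4a2, chr6:123122440-123122739, plus strand: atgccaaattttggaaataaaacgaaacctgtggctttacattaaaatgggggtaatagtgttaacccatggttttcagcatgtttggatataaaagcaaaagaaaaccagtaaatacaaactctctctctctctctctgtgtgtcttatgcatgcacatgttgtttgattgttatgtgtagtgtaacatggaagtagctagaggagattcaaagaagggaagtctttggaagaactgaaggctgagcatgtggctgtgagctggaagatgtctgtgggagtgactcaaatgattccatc
Clec4b1, chr6:123049712-123050011, plus strand: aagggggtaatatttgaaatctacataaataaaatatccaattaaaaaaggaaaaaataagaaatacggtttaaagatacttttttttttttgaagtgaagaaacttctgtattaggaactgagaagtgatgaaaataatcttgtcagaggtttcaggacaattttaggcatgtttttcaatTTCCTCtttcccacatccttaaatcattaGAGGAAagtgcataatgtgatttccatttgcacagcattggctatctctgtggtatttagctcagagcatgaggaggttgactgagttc
Clec4a1, chr6:122921598-122921897, plus strand: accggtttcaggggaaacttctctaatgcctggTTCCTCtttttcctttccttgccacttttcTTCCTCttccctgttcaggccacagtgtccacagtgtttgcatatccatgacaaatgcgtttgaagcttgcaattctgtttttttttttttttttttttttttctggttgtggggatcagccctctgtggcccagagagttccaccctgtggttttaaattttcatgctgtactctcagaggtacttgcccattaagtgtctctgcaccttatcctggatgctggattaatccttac
Clec4a3, chr6:122952394-122952693, plus strand: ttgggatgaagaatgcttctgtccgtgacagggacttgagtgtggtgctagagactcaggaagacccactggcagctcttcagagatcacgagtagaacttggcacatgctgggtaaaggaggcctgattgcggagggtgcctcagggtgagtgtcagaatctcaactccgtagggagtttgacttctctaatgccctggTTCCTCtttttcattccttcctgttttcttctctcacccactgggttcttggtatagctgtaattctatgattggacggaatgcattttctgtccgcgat
GAGGAA was present in a window of 7 of the 8 genes, and the gene without these letters was Clec4a2. Counted by window it was in 8 of 10, where 28.3% of all 32851 promoters of this length hold it. Clec4a3 and Clec7a have 2 windows each, which overlap. The Clec4a3 sequence shown is the second of 2 annotated windows, and its first window had no GAGGAA. The AP-1 letters TGANTCA were found for 2 genes, Clec4a2 and Clec12a, against 7.81% of all promoters. The C/EBP letters TTGCNNAA were found for Clec4e and Clec12a (10.8% of all promoters). An interferon-response element was matched for Clec4b1 and Clec4d (3.44% of all promoters) and an NF-kB motif for none of the 8 genes (0.411%). All were searched on both strands, and matches of different motifs may overlap. A match is a description of letters, not of a bound site. The Clec4a2 window starts inside the gene's span in the deposited table, which runs from 123106428 to 123143999 on the plus strand. The same holds for Clec12a, whose window starts at 129349994 and whose span runs from 129342691 to 129365303 on the plus strand.

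Values are FPKM, fragments per kilobase of transcript scaled to the reads of the library, and depth worked back from them was 16.52 M to 20.87 M reads. Cdkn2a, which encodes p16Ink4a, ran from 5.48 to 7.84 FPKM in p16High and from 0.620 to 1.71 FPKM in p16Low. The macrophage surface gene Adgre1, which encodes F4/80, ran from 2425 to 2751 FPKM in p16High and from 1236 to 2374 FPKM in p16Low, without overlap. p16Low replicate 2 stood apart: its log2 expression had a mean correlation of 0.963 with the other libraries, where each of the other 5 had 0.981 to 0.984. It was the highest of the 6 libraries for 3 receptor genes (Clec4d, Clec4a2 and Clec4b1) and the lowest for 3 (Clec4a1, Clec4e and Clec7a). Receptor differences are therefore given with and without it, and so are those of several other genes and lists.

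The 9 genes spanned a wide range of levels, and FPKM values, being per length, were ranked between genes. This ranking depends on the transcript length used for each gene, and whether that length fits the transcripts present was not tested. In p16High the order of mean FPKM was Clec4d, Clec4a3, Clec7a, Clec4e, Clec4a1, Clec4n, Clec12a, Clec4a2 and Clec4b1, and no neighbours in that order had overlapping library values. In p16Low the first and second places and the last were the same. There Clec4e overlapped Clec7a, Clec4a1 overlapped Clec4n, Clec4n overlapped Clec4a2, and Clec4a2 overlapped Clec12a, so the order within these pairs was not larger than the spread. Clec4d took 39.9% to 54.5% of the summed FPKM of the 9 genes in a library, and Clec4a3 took 16.7% to 20.2%. Clec4d, Clec4a3, Clec4e and Clec7a had a higher mean level than 88.4% or more of the 10895 genes tested, while Clec4a2 exceeded 34.0% of them.

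**Figure D1:**
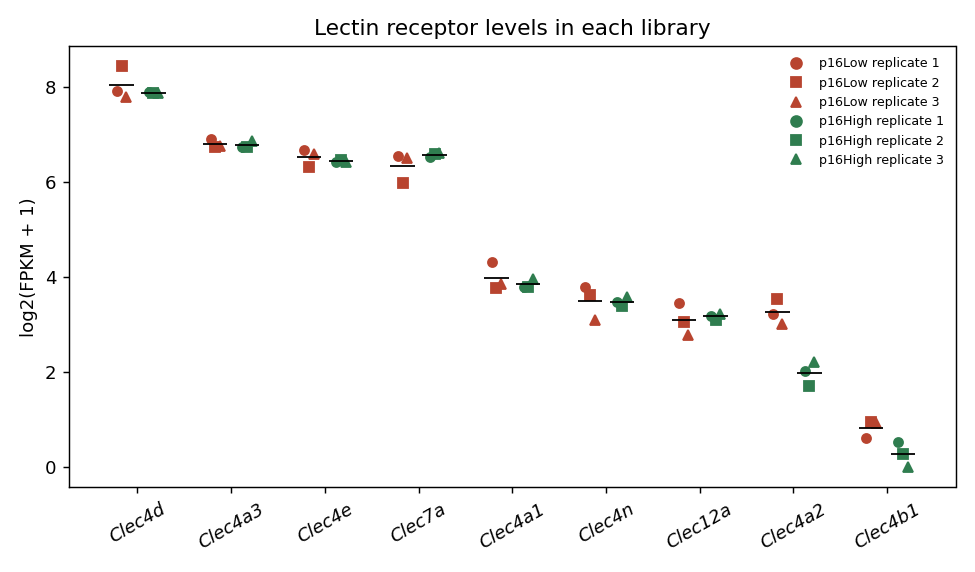
Level of each receptor gene, as log2(FPKM + 1), in the 3 p16Low (red) and 3 p16High (green) libraries, with marker shape giving the replicate and a bar at each group mean. Clec4a2 and Clec4b1 are the 2 genes whose groups do not overlap, and the p16High points of Clec4d nearly coincide while p16Low replicate 2 lies above.

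Clec4a2 (chr6:123106428-123143999, plus strand), the inhibitory receptor DCIR, had the widest gap between fractions on log2(FPKM + 1) among the 8 receptors tested. It stood at 8.29, 10.7 and 7.11 FPKM in p16Low replicates 1 to 3 and at 3.07, 2.29 and 3.63 FPKM in p16High replicates 1 to 3. Every p16High library was below every p16Low library. The means were 3.00 ± 0.675 against 8.69 ± 1.82 FPKM, a level 2.90-fold higher in p16Low. The reads behind these values were 171, 249 and 160 in p16Low and 65, 50 and 67 in p16High. As a difference of log2(FPKM + 1), a scale that shrinks the change of low genes, this was -1.28 (SE 0.210), and without p16Low replicate 2 it was -1.13 (SE 0.195). In sorted bulk RNA, fewer cells that express Clec4a2 and less of its RNA per cell cannot be told apart.

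Clec4b1 (chr6:123049962-123071555, plus strand), the activating receptor DCAR, was close to the limit of detection. It stood at 0.533, 0.943 and 0.907 FPKM in p16Low and at 0.445, 0.216 and 0 FPKM in p16High, from 7, 14 and 13 reads and 6, 3 and 0 reads. The groups did not overlap, but no library reached the minimum of 1 FPKM needed for testing. A count of 0 in p16High replicate 3 allows up to 3 reads, or 0.182 CPM (reads scaled to the library), which covers counting error only.

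Clec4a2 shares sequence with its neighbours, and the authors' counting may have split or dropped such reads. Of the 2959 distinct 50-base windows in the 5 annotated Clec4a2 transcripts, 6.83% also occur in transcripts of other genes, 114 of them in Clec4a4 and 68 in Clec4b1. Those 68 are 8.68% of the Clec4b1 windows. Clec4a4 (DCIR2), a DCIR relative of dendritic cells, averaged 0.493 ± 0.177 against 0.449 ± 0.200 FPKM, below the level of Clec4a2 in every library. No window of Clec4a1, Clec4a3, Clec4d, Clec4e or Clec7a was found in another gene. How far shared reads enter the Clec4a2 and Clec4b1 values was not tested.

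Clec4a3 (chr6:122952515-122969875, plus strand), a DCIR relative and the most abundant Clec4a gene, stood at 119, 105 and 107 FPKM in p16Low and at 105, 106 and 114 FPKM in p16High. The fractions overlapped, with a log2 difference of -0.03 (SE 0.121). Clec4a1 (chr6:122921848-122934619, plus strand) stood at 18.9, 12.5 and 13.5 FPKM in p16Low and at 12.8, 12.8 and 14.6 FPKM in p16High. Its highest value was p16Low replicate 1, and the groups again overlapped (log2 difference -0.13, SE 0.185). Relative to Clec4a3 in the same library, Clec4a2 had a log2 ratio of -5.20 ± 0.293 against -3.69 ± 0.336, with no overlap between fractions. The ratio does not depend on the scaling between libraries. Since Clec4a3 overlapped between fractions, it restates the Clec4a2 difference and is not a separate result.

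Clec12a (chr6:129342691-129365303, plus strand), the other inhibitory receptor, did not share the Clec4a2 pattern. It stood at 10.0, 7.35 and 5.84 FPKM in p16Low and at 8.10, 7.60 and 8.39 FPKM in p16High, so that the p16High values lay inside the p16Low range. Its log2 difference was 0.07 (SE 0.203). The log2 ratio of Clec4a2 to Clec12a was 0.18 ± 0.416 in p16Low and -1.45 ± 0.266 in p16High (SD, n = 3), again without overlap. Clec4a2 was thus above Clec12a in p16Low replicates 2 and 3 and below it in the other 4 libraries. With Clec12a overlapping between fractions, this ratio also restates the Clec4a2 difference.

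Clec4d (chr6:123262111-123275265, plus strand), the MCL receptor that pairs with Mincle, was the most abundant gene of the group. It stood at 240.1, 344 and 218 FPKM in p16Low and at 236, 230.3 and 231 FPKM in p16High. The p16High libraries nearly coincided, and p16Low replicate 2 was the only library far from the rest. The log2 difference was -0.17 (SE 0.172) with all libraries and 0.02 (SE 0.0699) without p16Low replicate 2, which turned its sign. Clec4e (chr6:123281789-123289870, minus strand), which encodes Mincle, stood at 100.1, 78.1 and 95.1 FPKM in p16Low and at 84.4, 87.0 and 84.7 FPKM in p16High. Its p16Low replicate 2 was the lowest value, opposite to Clec4d, although the genes are neighbours. The log2 difference of Clec4e was -0.09 (SE 0.135), and -0.19 (SE 0.0766) without p16Low replicate 2. The Clec4e values of the fractions overlapped with all libraries. With that library left out, both remaining p16Low values lay above all 3 p16High values. How many of all genes separate in that setting was not counted.

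Clec7a (chr6:129461591-129472779, minus strand), which encodes Dectin-1, stood at 92.2, 61.6 and 89.3 FPKM in p16Low and at 90.9, 94.6 and 96.6 FPKM in p16High. Its p16Low replicate 2 was again low, and the log2 difference moved from 0.23 (SE 0.169) to 0.05 (SE 0.0767) without it. The table gives Clec7a the biotype polymorphic pseudogene. Clec4n (chr6:123229843-123247021, plus strand), which encodes Dectin-2, stood at 12.7, 11.3 and 7.51 FPKM in p16Low and at 10.2, 9.47 and 11.0 FPKM in p16High, with a log2 difference of -0.01 (SE 0.206). All p16High values of Clec4n lay within the p16Low range.

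Of the 9 genes, 8 passed the filter of 1 FPKM in 3 libraries. In limma over all 10895 genes tested, 1 of the 8, Clec4a2, was called lower in p16High at a Benjamini-Hochberg adjusted p under 0.05 and none was called higher. Over all genes 0.716% were called lower and 0.174% higher, and limma-voom, which also called Clec4a2, called 0.808%. With either direction counted, 0.89% of all genes were called with 6 libraries, and 2.76% without p16Low replicate 2. An unadjusted p under 0.05 was reached by 7.22% of all genes, and a log2 difference at least as large as that of Clec4a2 by 0.688%. Groups did not overlap for 15.9% of all tested genes, 7.45% with p16High lower and 8.4% with p16High higher, and among the 8 tested receptors for 1, Clec4a2; Clec4b1, also without overlap, was not tested. Since the members were chosen with this contrast known, nothing is read from their count, and the Clec4a2 call is no independent test of it. The Clec4a2 call was not kept without p16Low replicate 1, p16Low replicate 3 or any p16High replicate, nor with a replicate block or no filter, while its log2 difference stayed between -1.54 and -1.13 over all 11 alternatives. The median log2 difference of the 8 genes was -0.06, against 0.05 for all tested genes. Apart from Clec4a2, no tested receptor differed by more than 0.23. Without p16Low replicate 2 the log2 difference was -0.24 for Clec4a1, -0.06 for Clec4a3 and 0.06 for Clec12a, and that of Clec4n turned from -0.01 to 0.05.

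**Figure D2:**
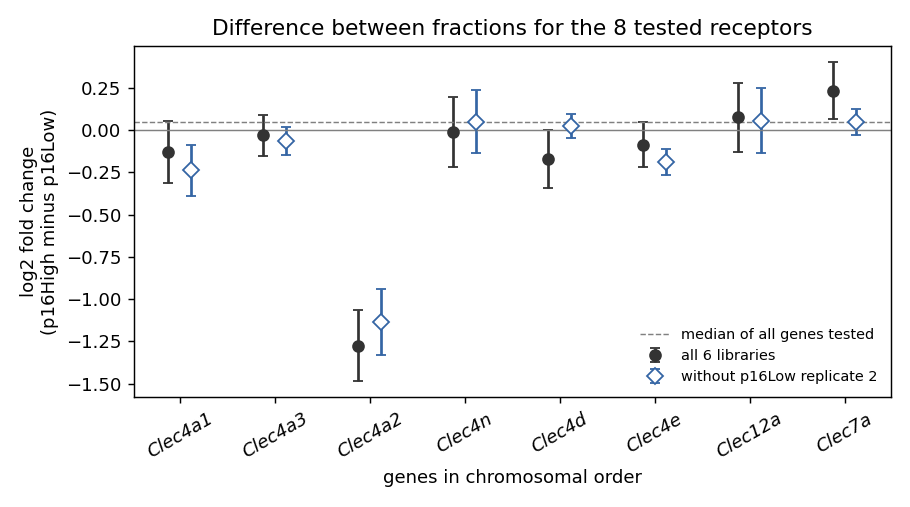
Log2 difference (p16High minus p16Low, on log2(FPKM + 1)) of the 8 tested receptor genes in chromosomal order, with all 6 libraries (filled) and without p16Low replicate 2 (open); bars are standard errors and the dashed line is the median of all genes tested. Clec4a2 lies at -1.28 and -1.13, and the other 7 lie between -0.24 and 0.23.

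The contrast of inhibitory with activating receptors was followed in each library. The summed level of Clec4a2 and Clec12a averaged 11.0 ± 1.07 against 16.4 ± 3.02 FPKM, with no overlap. The sum of the 5 activating genes was 446, 496 and 411 in p16Low and 422, 422 and 423 in p16High. Inhibitory transcripts thus came to 3.63 ± 0.480% of the activating sum in p16Low and 2.61 ± 0.250% in p16High (SD, n = 3), with no overlap. The log2 ratio differed by -0.47, and by -0.47 without p16Low replicate 2. This contrast rests on Clec4a2, because Clec12a and the activating sum overlapped between fractions. When Clec4a1 and Clec4a3 were added to the inhibitory sum, the log2 difference was -0.01 and the fractions overlapped.

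**Figure D3:**
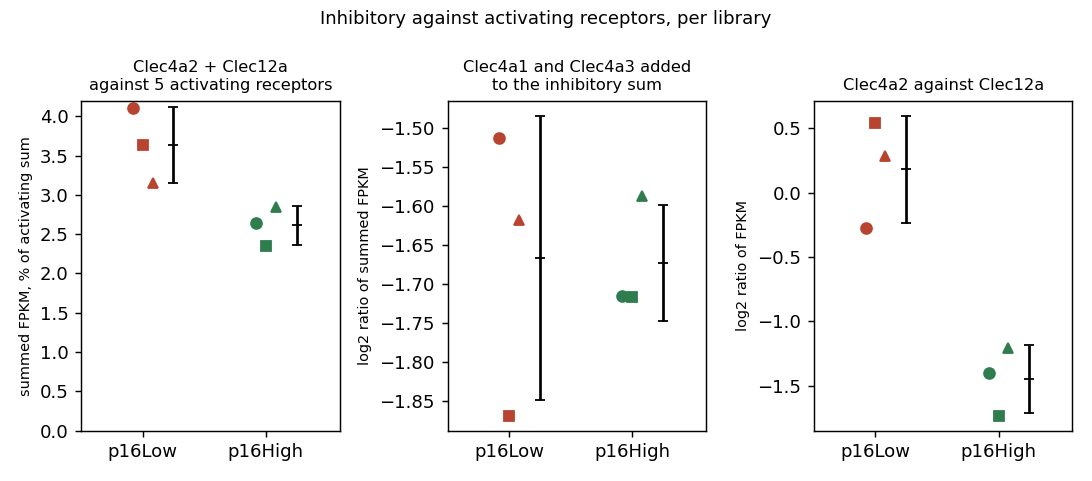
Ratios within each library (circle, square and triangle are replicates 1, 2 and 3; bars are mean ± SD, n = 3). Left, summed FPKM of Clec4a2 and Clec12a as a percentage of that of the 5 activating genes; middle, log2 ratio after Clec4a1 and Clec4a3 join the inhibitory sum; right, log2 ratio of Clec4a2 to Clec12a. The fractions separate in the left and right panels and overlap in the middle one.

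Genes of the signalling chain behind these receptors spanned a wide range of levels. Of 25 signalling genes 24 were tested, and none was called by limma or limma-voom; none had an unadjusted p under 0.05. Their median log2 difference was 0.13, with 18 of 24 positive, and without p16Low replicate 2 it was 0.03, with 14 of 24 positive. Fcer1g, the FcRgamma chain, averaged 1465 ± 81.8 against 1563 ± 287 FPKM (log2 difference -0.08, SE 0.147, and 0.07 without p16Low replicate 2). The kinase gene Syk stood at 25.4 ± 1.09 against 25.5 ± 7.15 FPKM (log2 difference 0.03, SE 0.212, and -0.21 without that library). Card9, the adaptor that links Syk to NF-kB, stood at 8.36 ± 3.39 against 7.80 ± 2.25 FPKM (log2 difference 0.05, and 0.25 without it). Ptpn6, the phosphatase that ITIM receptors recruit, stood at 295 ± 11.4 against 273 ± 39.0 FPKM (log2 difference 0.13, SE 0.137, and 0.0022 without it).

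The 4 signalling genes with the smallest p were Bcl10, Prkcd, Inpp5d and Vav1. Bcl10, the partner of Card9, averaged 51.1 ± 1.86 against 43.3 ± 5.10 FPKM (limma adjusted p = 0.747). It was the 1 signalling gene of the 24 tested whose groups did not overlap (15.9% of all tested genes). The kinase gene Prkcd stood at 85.5 ± 6.27 against 68.0 ± 23.0 FPKM, and Inpp5d, which encodes the inhibitory lipid phosphatase Ship1, at 33.5 ± 5.48 against 26.2 ± 8.20 FPKM. Vav1, an exchange factor downstream of Syk, stood at 36.1 ± 3.17 against 28.6 ± 11.1 FPKM. Adjusted p in limma was 0.747 to 0.754 for these 4 genes. Without p16Low replicate 2, where Vav1 stood at 15.8 FPKM, the log2 difference went from 0.40 to 0.04 for Vav1, from 0.39 to 0.07 for Prkcd, from 0.38 to 0.10 for Inpp5d and from 0.24 to 0.14 for Bcl10.

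Genes that these receptors are known to induce were mostly low. Of 20 such genes 9 were tested, and limma and limma-voom called none of them. An unadjusted p under 0.05 was reached by 1 of the 9 (7.22% of all tested genes). The median log2 difference of the 9 was -0.07, and -0.19 without p16Low replicate 2. Nos2 and Csf3 were listed at 0 in all libraries. Il1rn, the interleukin-1 receptor antagonist, had the smallest p, at 7.56 ± 1.19 against 4.12 ± 0.238 FPKM (log2 difference 0.73, SE 0.174, limma adjusted p = 0.138). Without p16Low replicate 2 its limma adjusted p was 0.0293, and across all alternatives the range was 0.0293 to 0.557. The chemokine gene Cxcl2 stood at 18.1 ± 1.51 against 21.6 ± 1.71 FPKM, Ccl4 at 0.726 ± 0.188 against 1.17 ± 0.0889 FPKM, and Il6 at 3.45 ± 0.817 against 4.79 ± 1.03 FPKM. The limma adjusted p was 0.738 to 0.747 for these 3 genes.

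Other C-type lectin receptor genes gave 10 tested of 24, of which limma and limma-voom called none. An unadjusted p under 0.05 was reached by 3 of the 10 (7.22% of all tested genes). The median log2 difference of the 10 was 0.06 with 5 of 10 positive, and 0.04 with 7 of 10 positive without p16Low replicate 2. Clec5a, an activating receptor that signals through DAP12, averaged 2.53 ± 0.326 against 5.24 ± 1.15 FPKM (log2 difference -0.81, SE 0.198, limma adjusted p = 0.162). Clec1b (CLEC-2, a podoplanin receptor) stood at 6.78 ± 0.365 against 4.41 ± 1.35 FPKM (log2 difference 0.55, SE 0.207, limma adjusted p = 0.564). Clec1b overlaps Clec9a on the same strand, so its value is uncertain; Clec9a stayed at or under 0.154 FPKM in every library. Without p16Low replicate 2 both Clec5a (adjusted p = 0.0105) and Clec1b (adjusted p = 0.029) passed in limma, and across all alternatives the range was 0.0105 to 0.648 for Clec5a and 0.029 to 0.984 for Clec1b. The mannose receptor gene Mrc1 stood at 2.70 ± 0.528 against 4.19 ± 0.663 FPKM (limma adjusted p = 0.617), and Mgl2, a galactose-type lectin, from 9.93 to 10.6 FPKM against 6.92 to 9.67 FPKM (limma adjusted p = 0.733).

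**Figure D4:**
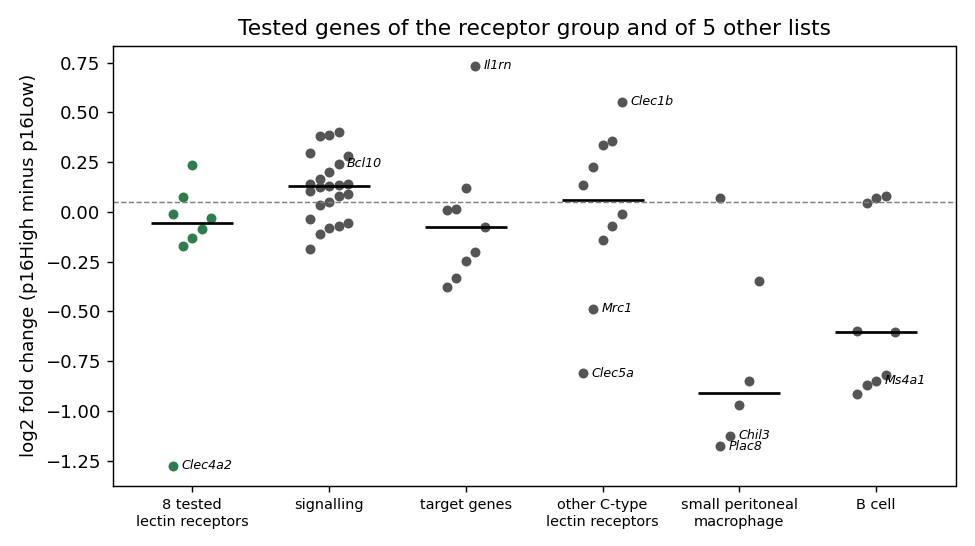
Log2 difference (p16High minus p16Low) of every tested gene in the receptor group (green) and in 5 other lists (grey), with a bar at each list's median and a dashed line at the median of all genes tested. Clec4a2 is the lowest point of the receptor group, and the medians of the small peritoneal macrophage and B cell lists, -0.91 and -0.61, lie below the other medians drawn. Of the lists not drawn, that of dendritic cells had a median of 1.01 over 3 tested genes.

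Markers of other cells were measured because several of them can carry these receptors. Of 6 tested genes listed for small peritoneal and monocyte-derived macrophages, 4 had p16High values entirely below p16Low values (7.45% of all tested genes). Limma and limma-voom called none, and 4 reached an unadjusted p under 0.05 (7.22% of all tested genes). The median log2 difference of the 6 was -0.91. The summed level of all 10 list genes was 2300 to 3013 FPKM in p16High and 2824 to 4349 FPKM in p16Low, most of it from Retnla, and no gene was at 0 in all libraries. The highest sum, 4349 FPKM, was that of p16Low replicate 2. The 2 most abundant were Retnla, at 2524 ± 349 against 3239 ± 743 FPKM, and S100a4, at 80.7 ± 8.29 against 151 ± 51.2 FPKM. Without p16Low replicate 2 the log2 difference went from -0.34 to -0.17 for Retnla and from -0.85 to -0.59 for S100a4. The monocyte receptor gene Ccr2 was below the filter, at 0.141 ± 0.00962 against 0.874 ± 0.231 FPKM.

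Of 9 tested B cell genes 4 had p16High values entirely below p16Low values (7.45% of all tested genes). Limma and limma-voom called none, and 6 reached an unadjusted p under 0.05 (7.22% of all tested genes). The median log2 difference of the 9 was -0.61, with 3 of 9 positive, and -0.70 with 1 of 9 positive without p16Low replicate 2. The summed level of the 10 list genes was 142.5 to 209 FPKM in p16High and 231 to 245 FPKM in p16Low, where 245 was replicate 2. No gene was at 0 throughout. The most abundant were Igkc, at 62.1 to 111 against 111 to 142 FPKM, and Ighm, at 28.8 ± 9.08 against 43.0 ± 5.18 FPKM. Without p16Low replicate 2, 4 of the 6 small macrophage genes and 2 of the 9 B cell genes were called lower in limma. In that setting 2.76% of all tested genes were called in either direction. The part of these cells in the lower Clec4a2 level was not tested.

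Neutrophil markers Ly6g, S100a9, Cxcr2, Ngp and Ltf were listed at 0 in all libraries, 5 of 10, and the summed level was 32.6 to 40.0 FPKM in p16High and 35.0 to 54.0 FPKM in p16Low, mostly from S100a8 and Mmp9. The highest sum, 54.0 FPKM, was that of p16Low replicate 2. Of 10 dendritic cell genes 3 were tested; Siglech was at 0 and Flt3 averaged 0.00531 FPKM in p16High and 0 in p16Low. The dendritic cell sum was 95.7 to 119 FPKM in p16High and 29.3 to 34.9 FPKM in p16Low. Most of it came from the actin-bundling gene Fscn1 and from Cd209a. Of the 3 tested genes Fscn1 was the 1 called, where 0.89% of all tested genes were called in either direction. The T and NK cell sum stayed at or under 0.627 FPKM, with Trac, Ncr1, Gzma, Prf1 and Klrb1c at 0. Of 10 large peritoneal macrophage genes, all were tested, and 4 had p16High values entirely above p16Low values (8.4% of all tested genes). Limma and limma-voom called none of the 10, with 3 at an unadjusted p under 0.05 (7.22% of all tested genes). All 10 log2 differences were positive with 6 libraries (median 0.24), and 8 of 10 without p16Low replicate 2 (median 0.09). The most abundant were Alox15, whose log2 difference went from 0.12 to -0.10 without that library, and Adgre1, from 0.45 to 0.14. Of 9 tested immediate early and heat shock genes limma and limma-voom called none and none reached an unadjusted p under 0.05, with a median log2 difference of 0.15.

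Likeness across the 6 libraries was measured as the root mean square difference of centred log2(FPKM + 1) profiles. For Clec4d, the most abundant activating gene, the closest were the splicing factor gene Cwc15 (0.0250), Ptgfrn (0.0262) and the proteasome assembly gene Pomp (0.0275). For Clec12a, the inhibitory gene with the higher mean over all 6 libraries, though not over p16Low alone, they were Mamld1 (0.0553), Qrsl1 (0.0583) and C8g (0.0625). Clec4a2 was added after its values were seen, and its closest profiles were those of the meiotic synapsis gene Syce2 (0.104), the replication gene Gins1 (0.120) and the chromatin gene Hmgb2 (0.128). Syce2 averaged 2.67 ± 0.500 against 8.66 ± 2.38 FPKM, and Gins1 averaged 3.28 ± 0.460 against 9.42 ± 2.41 FPKM.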

How the data were processed

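The deposited table holds FPKM values that the authors made per gene and library, per the file headers and values. The submitters' processing notes name HTSeq 0.6.1, TopHat2 2.0.12 and Bowtie2 2.2.3, without their roles (strand setting and genome build: not given in the sources used here). Start and end matched GENCODE M21 (GRCm38) for 98.3% of the gene IDs found there, and coordinates are therefore taken as GRCm38. Whole reads were worked back from the steps of the values and transcript lengths: 96.2% of 22566 genes above 0 came out whole within 0.001 of a read with the annotated mean length, and 100% after a search over lengths. They gave the depths and the limma-voom alternative.

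Genes with at least 1 FPKM in 3 libraries were tested with limma 3.58.1 (R 4.3.3) on log2(FPKM + 1), with group as the only term, a trend and Benjamini-Hochberg adjustment at 0.05. The test was run on simulated reads with the same setting of spread for every gene and no outlying library. That check therefore does not cover a library such as p16Low replicate 2. The members, lists and settings were chosen with earlier results of these data known. Named genes were all members, the core genes Fcer1g, Syk, Card9 and Ptpn6, the 4 smallest p of each pathway list, the 3 closest profiles and the most abundant or absent markers; Cdkn2a, Clec4a4, Clec9a, Ccr2, Flt3, Fscn1, Cd209a, Nos2 and Csf3 were chosen after their values were seen. The alternatives tried were scaling by median of ratios, a pseudocount of 0.1, no filter, limma-voom, a replicate block and each library left out. Shared 50-base windows were counted over all GENCODE M21 transcripts on both strands.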

Additional observations from a re-analysis of the deposited data

How the results depend on the processing

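Over all genes, 97 were called, and 9 with no filter on low values; leaving out 1 library gave 17 (without p16High replicate 2) to 301 (without p16Low replicate 2). Among the receptors, Clec4a2 was called with 6 libraries, and 0 were called with no filter, 0 with the replicate block, and 0 to 1 with 1 library left out, the 1 being without p16Low replicate 2. The signalling list had 0 calls in every alternative run. Leaving out 1 library gave 0 to 1 calls for target genes and 0 to 2 for other lectin receptors, the higher values again without p16Low replicate 2. The log2 difference in the inhibitory to activating ratio was -0.57 to -0.38 with 1 library left out, -0.48 as a mean of log2 values, and -0.00635 with Clec4a1 and Clec4a3 added, which by construction lets Clec4a3 outweigh Clec4a2.

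The labels do not say that replicate numbers pair the libraries, so the numbers were not taken as pairing. Deviations of same-numbered libraries had correlations of -0.19, -0.17 and 0.01, and those of differently numbered libraries ran from -0.20 to 0.24. With 3 libraries per group these values cannot decide whether the libraries are paired. The replicate block gave 67 calls over all genes. Of the other tested receptors, Clec7a stayed positive and Clec4e negative in all 11 alternatives, while Clec12a, Clec4a1, Clec4a3, Clec4d and Clec4n changed sign in at least 1. Clec4b1, at 0 to 14 reads, was limited by depth.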
